A study of Mus musculus with 9 samples.

Results

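The nuclear-encoded subunits of oxidative phosphorylation (OXPHOS) were followed in the mouse macrophage line RAW264.7, whose cells turn osteoclast-like under RANKL, a cytokine that drives osteoclasts to form. Rows were chosen by gene symbol alone: the Nduf genes of complex I, the Sdh genes of complex II, the Uqcr genes and Cyc1 of complex III, Cycs, the Cox genes numbered 4 to 8 without Cox6a2, and the Atp5 genes of complex V. The rule found 85 of 23282 gene rows, with 35 in complex I, 4 in complex II, 9 in complex III, 17 in complex IV, 17 in complex V, cytochrome c, and the pair Ndufa4 and Ndufa4l2, which is kept apart because NDUFA4 is now counted with complex IV. Of the 85 rows, 3 match the rule by name but encode no subunit of the core assemblies: Cox7a2l, a supercomplex factor, and Atp5s and Atp5sl, which are assembly or coupling factors. The subunits encoded by mitochondrial DNA are not analysed here.

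There were 3 groups of 3 libraries, all from cells at passage 30 and labelled with the BALB/c strain. The control received RANKL alone at 50 ng/mL. A second group received RANKL with surface proteins of the dairy bacterium Propionibacterium freudenreichii MJ2 at 10 µg/mL, and the remaining group received heat-killed MJ2 at 10000000 cells/mL. Treatment lasted 4 days, and whether RANKL was also given to the heat-killed MJ2 cells is not stated for each library. All 3 groups are one cell line, so no animals or donors stand behind the replicates, and p-values measure the spread between these libraries, which may be technical. Reads came from the 3′ end of mRNA, so a value does not grow with transcript length. The deposited log2 values were turned back into adjusted reads, which are 2 raised to the value, less 1.

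Oxidative phosphorylation takes electrons from NADH through complex I and from succinate through complex II, passes them by way of ubiquinone to complex III, and by way of cytochrome c to complex IV, where oxygen is reduced to water. Complexes I, III and IV move protons across the inner mitochondrial membrane, and complex V, the ATP synthase, lets them flow back to make ATP. Osteoclasts are rich in mitochondria, and the coactivator PGC-1β (Ppargc1b) is known for raising mitochondrial biogenesis while they form. Transcription of the nuclear genes is known to use NRF1, the ETS factor GABPA, the estrogen-related receptors (ERR) and YY1, among others.

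The libraries held 5930926 to 6503682 adjusted reads, with 12407 to 13207 rows above 0 in 6 of them and exactly 15503 in 1 library of each group (RANKL alone 2, surface proteins 3, heat-killed MJ2 1). Rows above 0 in any library also numbered 15503, so those libraries were above 0 in every such row. Some of their values were far under 1 read, for Cox6b2 0.0021, 0.0028 and 0.00069 adjusted reads in that order. The 15503 rows are thus not a count of genes detected. The labels name macrophage as the source and "Blood lymph" as the tissue. All 8 macrophage markers checked were above 3 reads in every group, summing to 20357 to 21572 adjusted reads with RANKL alone, 23787 to 26569 with surface proteins and 27133 to 27655 with heat-killed MJ2. Lists of 5 fibroblast, 4 epithelial, 4 T cell and 4 B cell markers summed to at most 41.8 adjusted reads in any library. Past the test used below, 5 of the 8 macrophage markers rose with surface proteins against RANKL alone and Csf1r fell. With heat-killed MJ2 3 rose and 0 fell past it. In each of these comparisons 3 of the 8 changes were negative. Osteoclast and proliferation markers moved with the groups as well and are given beside the results they accompany. Since these are bulk samples, fewer cells of a type and less RNA per cell cannot be told apart.

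Promoter sequences are shown first for 4 members whose RNA was lower with surface proteins, as examples of windows that hold the letters of the ETS, NRF1 and ERR motifs. Each sequence is upstream of the RefSeq start on the GRCm38.p6 build and was trimmed to a stretch free of annotated exons. All 4 genes lie on the minus strand, so each stretch is written 5′ to 3′ on that strand, with the letters of the motif named below for it in capitals and any CCAAT box left in lower case. Uqcrh (chr4:116075072-116075268) and Uqcr11 (chr10:80406831-80407071) held the ETS letters CCGGAAG or their reverse complement CTTCCGG, Cox6a1 (chr5:115348982-115349129) held NRF1 letters at 2 places, and Atp5g3 (chr2:73911327-73911576) held the ERR letters TCAAGGTCA as their reverse complement.
Uqcrh: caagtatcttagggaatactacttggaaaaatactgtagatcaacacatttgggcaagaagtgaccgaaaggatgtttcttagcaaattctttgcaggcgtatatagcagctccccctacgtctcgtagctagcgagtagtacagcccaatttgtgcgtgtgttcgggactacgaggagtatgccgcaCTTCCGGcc
Uqcr11: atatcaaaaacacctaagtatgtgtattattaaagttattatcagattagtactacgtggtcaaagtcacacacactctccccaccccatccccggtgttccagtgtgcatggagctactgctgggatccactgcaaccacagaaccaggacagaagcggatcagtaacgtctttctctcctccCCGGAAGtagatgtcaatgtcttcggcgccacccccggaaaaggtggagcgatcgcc
Cox6a1: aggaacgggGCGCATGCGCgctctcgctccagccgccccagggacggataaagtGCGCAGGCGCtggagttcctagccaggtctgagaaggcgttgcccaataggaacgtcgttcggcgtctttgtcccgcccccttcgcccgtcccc
Atp5g3: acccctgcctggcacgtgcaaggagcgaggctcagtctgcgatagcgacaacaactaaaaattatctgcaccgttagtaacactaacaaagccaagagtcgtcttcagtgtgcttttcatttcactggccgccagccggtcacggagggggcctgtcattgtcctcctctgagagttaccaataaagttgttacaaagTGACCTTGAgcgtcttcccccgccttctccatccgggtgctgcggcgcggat

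Promoter windows of 300 bases, 250 before and 50 after the start, were matched for 70 of the 85 members (76 windows). The ETS letters stood on either strand in 16 of these 76 windows (21.1%), against 8.86% of the 32851 windows of all genes. The share was 31.6% (12 of 38 windows) for members lower with surface proteins and 11.4% (4 of 35) for the other tested members. The NRF1 letters (the capitals in Cox6a1, with any base after the A) stood in 23.7% of the members' windows and in 4.6% of all windows, with 21.1% of the lower members' windows and 28.6% of the other members'. The YY1 letters AANATGGCG stood in 15.8% against 2.38% of all windows, with 7.89% of the lower and 25.7% of the other members' windows. ERR letters were found in 2 of the 76 windows (2.63%), those of Atp5g3 and Sdhd, and in 0.423% of all windows. Of these 2, 1 belonged to a lower member and 1 to another member. The short box CCAAT stood in 43.4% against 37.4%, with 39.5% of the lower and 45.7% of the other members' windows. The members thus held NRF1, ETS and YY1 letters more often than windows in general, which include those of genes not detected in these cells. In the lower members the ETS share was larger than in the other members, and the NRF1, YY1 and CCAAT shares were smaller. That split rests on calls of which many were lost without a single library. No test was run on these shares, a gene with several starts has several windows, and a match of letters is not a bound site.

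Of the 85 rows, 80 were tested, having reached 10 adjusted reads in 3 or more of the 6 libraries of every comparison. The other 5 are isoforms of complex IV known from other tissues. Cox7b2, Cox8b and Cox8c were at 0 in all 9 libraries, which allows up to 3 reads in each, and Cox6b2 did not exceed 0.96 adjusted reads. Cox4i2, the lung-enriched isoform of subunit 4, was at 0, 0.0238 and 0 with RANKL alone, at 6.9, 0 and 0.0295 with surface proteins, and at 2.04, 3.9 and 1.96 with heat-killed MJ2. These 5 rows stand near the limit of detection in every group.

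The first comparison asked how surface proteins changed these transcripts in cells given RANKL. Summed over all 85 rows, the members took 19762, 18668 and 21934 of every 1000000 adjusted reads with RANKL alone, 13934, 12273 and 13207 with surface proteins, and 19336, 16772 and 18717 with heat-killed MJ2. All 3 surface protein libraries lay below the other 6. Surface protein libraries were also lowest in each complex. Complex I subunits took 4966 to 5804 on the same scale with RANKL alone, 3635 to 4084 with surface proteins and 4715 to 5351 with heat-killed MJ2. Complex V subunits took 5550.0 to 6510 with RANKL alone, 3236 to 3845 with surface proteins and 4883 to 5814 with heat-killed MJ2.

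**Figure D1:**
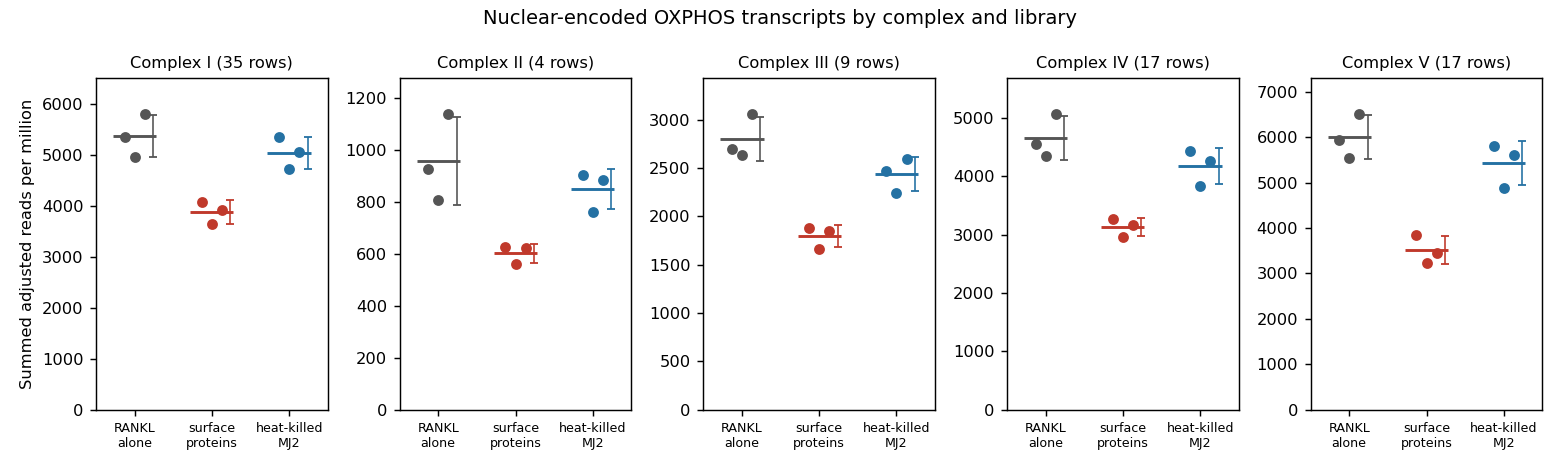
Adjusted reads (y axis, scaled to 1000000 per library) summed over the rows of complexes I to V, with 1 point per library, the mean as a bar and the SD as a whisker (n = 3), on axes that start at 0. In each of the 5 panels the 3 surface protein points lie below all 6 others, while the points of RANKL alone and heat-killed MJ2 overlap in all but complex III, where heat-killed MJ2 reached 2593 and RANKL alone started at 2641.

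Gene by gene, 39 of the 80 tested members fell with surface proteins and 1, Uqcrq, rose, at an adjusted p under 0.05 by limma's moderated test with Benjamini-Hochberg adjustment over all rows. Over all 10874 rows tested, 13.2% fell and 15.9% rose, 29.1% together. The median log2 fold change was -0.51 over the members and -0.0077 over all rows, and 75 of the 80 members had a negative change, against 50.5% of all rows. In 62 members all surface protein libraries lay below all libraries of RANKL alone (23.7% of all rows did so), and in 2 they lay above (24.7% of all rows). At a fold change of at least 2, 7 members fell (7.32% of all rows) and 0 rose (10.2% of all rows), while the limma test at an unadjusted p under 0.05 gave 53 lower members and 1 higher (20.1% and 22.1% of all rows). The count rested on all libraries. Without 1 library it was 16 (RANKL alone 1), 13 (RANKL alone 3), 13 (surface proteins 2) or 18 (surface proteins 3) in place of 40, 27 or 28 without either of the other 2, 25 with a replicate block, and 6 when both libraries with 15503 rows above 0 were left out, with the median between -0.60 and -0.47 throughout. Of the 40 calls, 28 were lost on leaving out at least 1 single library, and 12 held without each of them. In all 17 alternative fits, which do not apply the 2-fold limit, 6 held: Uqcrh, Uqcr10, Atp5g3, Atp5k, Atp5j2 and Atp5o. Of these 6, Atp5o alone fell by less than 2-fold. The other 6 of those 12 (Uqcrfs1, Ndufs7, Ndufb10, Cox6b1, Cox7b and Atp5l) were lost without both 15503-row libraries alone.

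Other transcripts moved with the same contrast. Over the 10 osteoclast markers the sum was 20914 to 33120 adjusted reads with RANKL alone and 5262 to 7864 with surface proteins, and 7 of the 9 tested markers fell and 0 rose. All 10 osteoclast markers had reads with RANKL alone, Calcr at no more than 4.93 in any library. The 5 proliferation markers (Mki67, Top2a, Ccnb1, Cdk1 and Birc5) summed to 4847 to 6277 adjusted reads with RANKL alone and to 561 to 1926 with surface proteins, and all 5 fell. Among the macrophage markers, chosen for naming after their values were seen, the adhesion receptor Adgre1 rose by 3.81 ± 0.53 on the log2 scale (limma adjusted p = 0.0046), the integrin Itgam by 3.01 ± 0.16 (0.00023), and the receptor Csf1r fell by 1.47 ± 0.20 (0.0039). The part of these 3 lists in the fall of the OXPHOS transcripts was not tested.

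**Figure D2:**
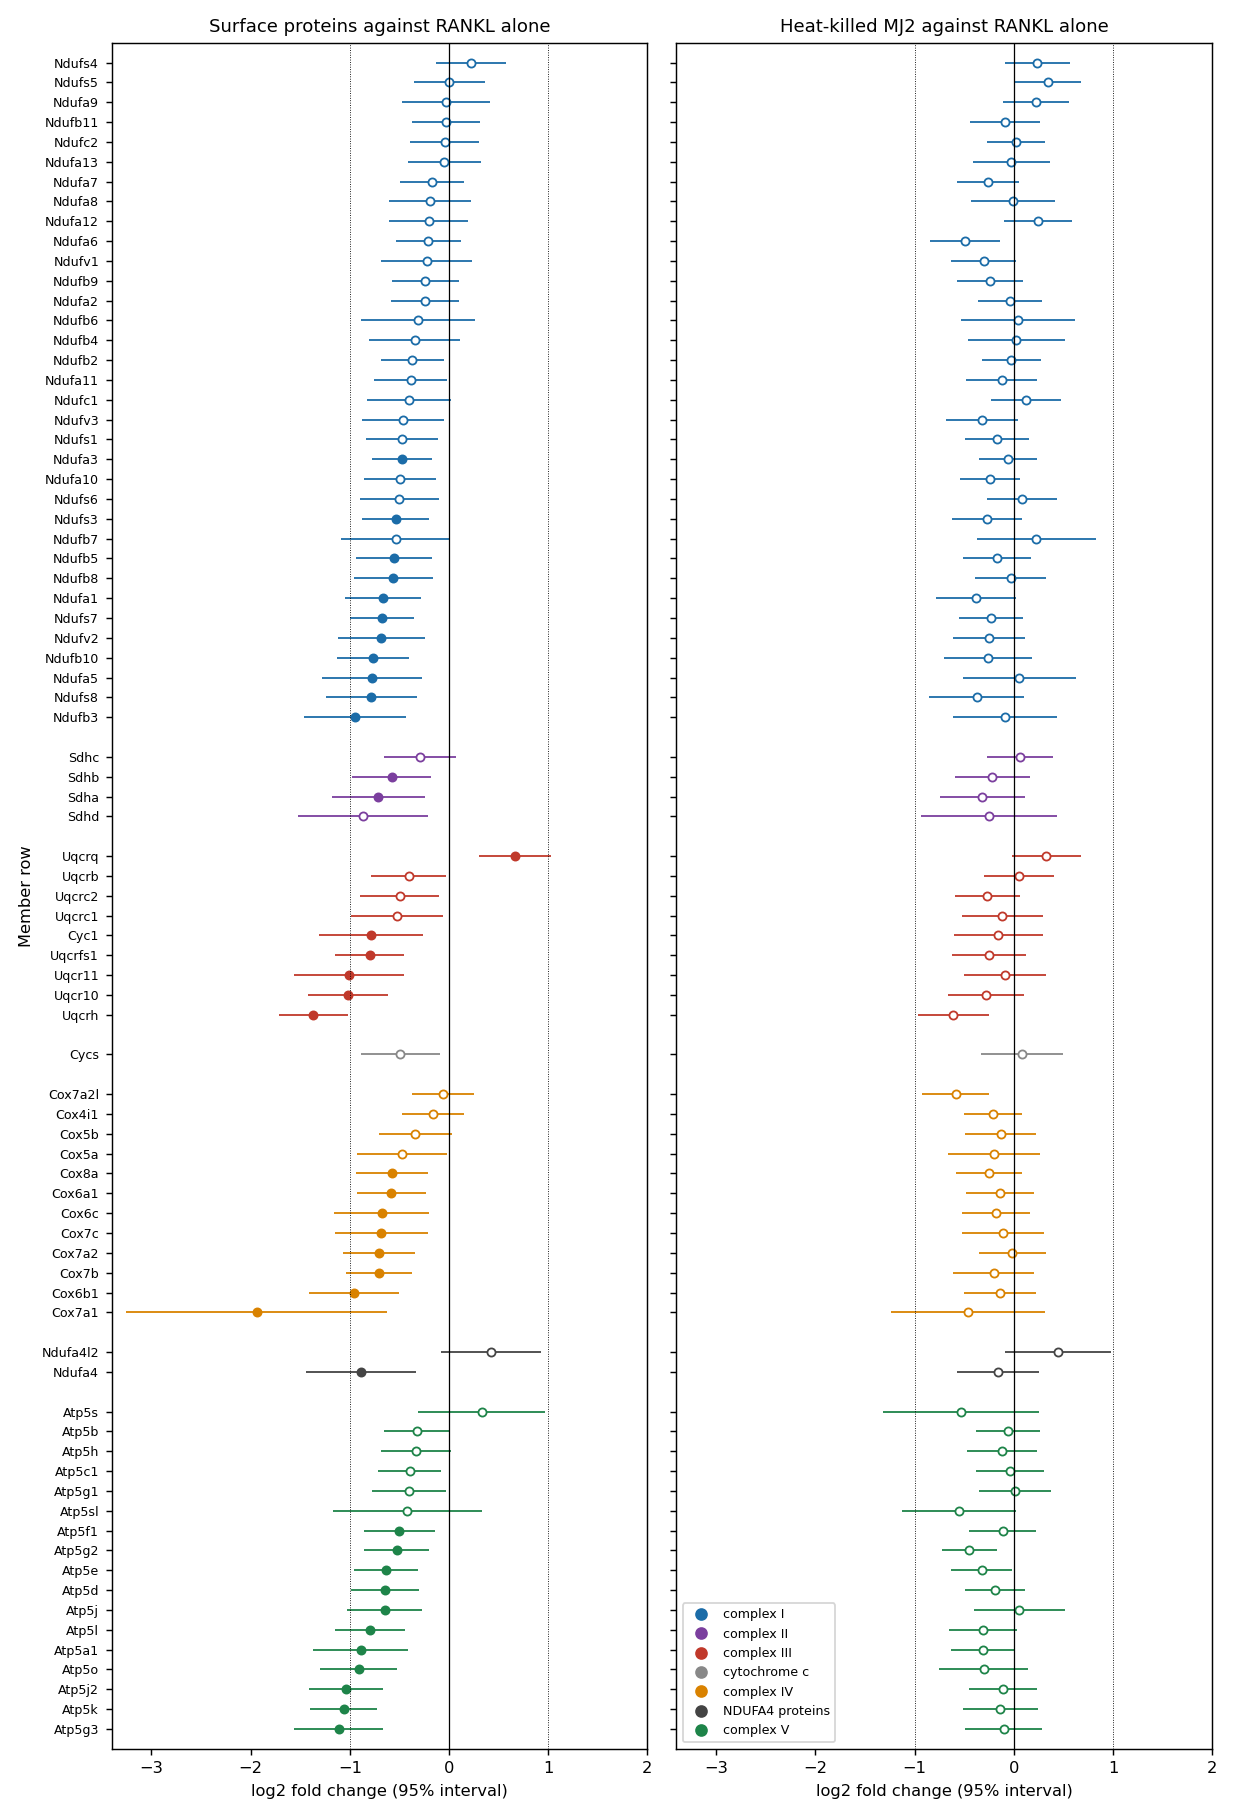
log2 fold change (x axis) of 79 tested members (y axis), grouped and coloured by complex, with 95% intervals as lines, for surface proteins (left) and heat-killed MJ2 (right) against RANKL alone. Filled points passed an adjusted p under 0.05, and dotted lines mark a change of 2-fold. On the left 39 points are filled, 38 of them below 0, and on the right none is.

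Complex III, which hands electrons from ubiquinol to cytochrome c, had the lowest median change, -0.78, with 5 of its 9 members lower and Uqcrq higher. Uqcrh, the hinge protein that helps cytochrome c1 meet cytochrome c, was at 6021, 5816 and 6320 adjusted reads with RANKL alone, at 2588, 2086 and 2384 with surface proteins and at 4231, 3391 and 4347 with heat-killed MJ2. The 3 groups did not overlap, and the fall with surface proteins was 2.58-fold (log2 fold change -1.37 ± 0.14 SE, limma adjusted p = 0.002). It was the only member whose 95% interval, -1.72 to -1.02, lay wholly beyond a 2-fold fall. Uqcr10 and Uqcr11, small subunits at the edge of the complex, also fell. Uqcr10 was at 1946, 1637 and 2265 adjusted reads with RANKL alone and at 948, 895 and 1019 with surface proteins (-1.02 ± 0.17, limma adjusted p = 0.0078), and Uqcr11 fell by 1.01 ± 0.23 on the log2 scale (adjusted p = 0.021). The Uqcr11 call was lost without RANKL alone 1 (adjusted p = 0.0645), RANKL alone 3 (0.0615), surface proteins 2 (0.0546) or surface proteins 3 (0.0598), and without both 15503-row libraries (0.0825). Both electron-carrying members fell: Uqcrfs1, the Rieske iron-sulphur protein, by 0.80 ± 0.14 (adjusted p = 0.01) and Cyc1, the cytochrome c1 subunit, by 0.78 ± 0.22 (adjusted p = 0.039). The Cyc1 call was lost in 8 of 17 alternatives, at adjusted p from 0.0555 to 0.117, namely without any single library but surface proteins 1, without both 15503-row libraries, without the filter and with a replicate block (0.0555), while the Uqcrfs1 call was lost in 1, without both 15503-row libraries (0.0666). The core proteins Uqcrc1 (-0.52 ± 0.19, adjusted p = 0.088) and Uqcrc2 (-0.50 ± 0.17, adjusted p = 0.067) did not pass, although their groups did not overlap. Uqcrb, which lines the quinone pocket and was named to complete the complex, was at 719, 632 and 805 adjusted reads with RANKL alone and at 564, 490.5 and 565 with surface proteins (-0.41 ± 0.16, adjusted p = 0.096).

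Uqcrq, the small ubiquinone-binding subunit of the same complex, moved the other way. It was at 2194, 2211 and 2609 adjusted reads with RANKL alone, at 3370 (replicate 1), 4008 and 3708 with surface proteins and at 2675, 3193 and 2934 with heat-killed MJ2. All surface protein libraries lay above all others, and the rise against RANKL alone was 1.58-fold (log2 fold change 0.66 ± 0.15 SE, limma adjusted p = 0.021). It was the single member above the other 6 libraries in every surface protein library, whereas 49 of the 80 were below them. Of the 10554 rows tested in all comparisons, 14.7% lay above and 14.7% below in that way. The direction held in all 17 alternatives, between 0.60 and 0.74, and the call was lost in 6 of them, namely without RANKL alone 1 (limma adjusted p = 0.0662), RANKL alone 2 (0.0576), surface proteins 2 (0.0681) or surface proteins 3 (0.0621), without both 15503-row libraries (0.132), and with a replicate block (0.0515). No similar transcript or pseudogene was found for the 3′ end of its longest annotated coding transcript.

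Cycs, the soluble cytochrome c that carries electrons from complex III to complex IV, was at 887, 1132 and 1206 adjusted reads with RANKL alone and at 785, 742 and 749 with surface proteins. The groups did not overlap, and the change of -0.49 ± 0.16 had an adjusted p of 0.068 by limma.

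Complex V had 11 of 17 members lower, 0 higher and a median of -0.63. The largest change was in Atp5g3, 1 of 3 genes for the c subunit of the membrane ring, at 7690.2, 6439.7 and 8067 adjusted reads with RANKL alone, 4149, 3140.0 and 3031 with surface proteins and 7584, 6038 and 7057 with heat-killed MJ2. The surface protein group stood apart, while the other 2 groups overlapped. The fall was 2.16-fold (log2 fold change -1.11 ± 0.18 SE, limma adjusted p = 0.0079). The other c-subunit genes moved by smaller estimates: Atp5g2 by -0.53 ± 0.13 (adjusted p = 0.031, lost in 7 of 17 alternatives, without any single library but surface proteins 1 among them) and Atp5g1, named after its values were seen, by -0.40 ± 0.16 (adjusted p = 0.098). Differences among the 3 genes were not tested.

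The ATP synthase subunits e and f, which sit in the membrane part and help the enzyme form dimers, both fell by more than 2-fold. Subunit e (Atp5k) was at 795, 717 and 811 adjusted reads with RANKL alone and at 389, 338 and 385 with surface proteins (-1.06 ± 0.14, limma adjusted p = 0.0038). Subunit f (Atp5j2) was at 2550.3, 2633 and 3109.7 with RANKL alone and at 1429, 1209 and 1401 with surface proteins (-1.04 ± 0.15, limma adjusted p = 0.0054). The remaining lower members of the stalk and membrane part, named to complete the count, were Atp5o (-0.91 ± 0.16, adjusted p = 0.0096), the OSCP subunit that ties the head to the side stalk, subunit g (Atp5l, -0.79 ± 0.15, 0.011), F6 (Atp5j, -0.65 ± 0.16, 0.026) and subunit b (Atp5f1, -0.50 ± 0.15). The call of Atp5j was lost without RANKL alone 1, RANKL alone 3, surface proteins 2 or surface proteins 3, that of Atp5f1 without any 1 of the 6 libraries, and both with a replicate block and without both 15503-row libraries, at adjusted p up to 0.0821 and 0.172. Subunit d (Atp5h) did not pass (-0.33 ± 0.15, 0.13). In the catalytic F1 head, 3 of 5 subunits fell. The alpha subunit Atp5a1 fell by 0.89 ± 0.20 on the log2 scale (adjusted p = 0.02), delta (Atp5d) by 0.65 ± 0.14 (0.019) and epsilon (Atp5e) by 0.63 ± 0.13 (0.017). The beta subunit Atp5b, which carries the catalytic sites, was at 4534, 4155 and 4979 adjusted reads with RANKL alone and at 3595, 3501 and 3807 with surface proteins, a change of -0.32 ± 0.14 (adjusted p = 0.13), and gamma (Atp5c1) changed by -0.40 ± 0.13 (0.068). Both beta and gamma sat below the control in all 3 libraries without passing the test. The calls of Atp5a1 (5 of 17), Atp5d (4) and Atp5e (4) were lost in some alternatives, each of them without RANKL alone 3 and without both 15503-row libraries, Atp5a1 and Atp5d also without RANKL alone 1 or surface proteins 2, Atp5a1 and Atp5e without surface proteins 3, and Atp5e with a replicate block, at adjusted p up to 0.103. Those of Atp5g3, Atp5k, Atp5j2 and Atp5o held in all 17. The highest change in the complex was in Atp5s, the coupling factor B, at 39.3, 54.9 and 55.4 adjusted reads with RANKL alone and at 54.8, 49.9 and 87.6 with surface proteins (0.33 ± 0.26, adjusted p = 0.39), where the groups overlapped.

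Complex IV, which reduces oxygen, had 8 of 12 tested members lower, 0 higher and a median of -0.63. Its largest change was in Cox7a1, the isoform of subunit 7a typical of heart and skeletal muscle, at 32.8, 28.02 and 65.3 adjusted reads with RANKL alone, 3.88, 13.4 and 15.5 with surface proteins and 25.6, 28.1 and 31.4 with heat-killed MJ2. The change of -1.94 ± 0.54 (limma adjusted p = 0.041) rested on few reads, with an interval of -3.25 to -0.63. Its call was lost in 8 of 16 alternatives, at adjusted p from 0.0512 to 0.104: without any single library but surface proteins 3, without both 15503-row libraries, without the filter, and with a constant of 0.1 before the log. The common isoform Cox7a2 fell by 0.71 ± 0.15 (adjusted p = 0.017), from 3251, 2979 and 3589.6 adjusted reads to 1828, 1994 and 2197. Cox6a1 fell by 0.58 ± 0.14 (0.028). The other lower subunits, named to complete the count, were Cox6b1 (-0.96 ± 0.19, 0.013), Cox7b (-0.71 ± 0.14, 0.013), Cox7c (-0.68 ± 0.19, 0.042), Cox6c (-0.68 ± 0.20, 0.046) and Cox8a (-0.57 ± 0.15, 0.034). The call of Cox7c was lost without any 1 of the 6 libraries and that of Cox6c without any but surface proteins 1. That of Cox8a was lost without RANKL alone 1, RANKL alone 3, surface proteins 2 or surface proteins 3. All of these calls were also lost with a replicate block and without both 15503-row libraries, and those of Cox7c and Cox6c without the filter, at adjusted p up to 0.182. Cox6b1, which faces the side of cytochrome c docking, was at 3168, 2527 and 3039 adjusted reads with RANKL alone and at 1832, 1339.9 and 1359 with surface proteins, and the groups did not overlap. The Cox7a2 call was lost in 4 of 17 alternatives (without RANKL alone 1, RANKL alone 3, surface proteins 2 or both 15503-row libraries) at adjusted p up to 0.0604, and that of Cox6a1 in 7 (without any single library but RANKL alone 2, without both 15503-row libraries, or with a replicate block) at up to 0.089. Cox5a (-0.47 ± 0.19, adjusted p = 0.1) and Cox5b (-0.34 ± 0.15, 0.14) did not pass.

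Cox4i1, the ubiquitous isoform of subunit 4, did not pass and was at 3528, 3635 and 3871 adjusted reads with RANKL alone, 3147, 3391 and 3344 with surface proteins and 3219, 3206 and 3133 with heat-killed MJ2. Its change with surface proteins was -0.16 ± 0.13 with an interval of -0.47 to 0.15 (adjusted p = 0.39), so a 2-fold change in either direction lay outside the interval. Ndufa4, a complex IV subunit that was first assigned to complex I, fell by 0.89 ± 0.23 (adjusted p = 0.032), a call lost in 6 of 17 alternatives (without the filter, any RANKL alone library, surface proteins 2 or both 15503-row libraries) at up to 0.104. Its hypoxia-inducible relative Ndufa4l2 was at 61.9, 56.1 and 72.2 adjusted reads with RANKL alone and 109, 71.0 and 79.1 with surface proteins, and its change of 0.42 ± 0.21 (adjusted p = 0.17) did not pass.

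Complex II, which is also the succinate dehydrogenase of the citric acid cycle, had 2 of 4 members lower. The flavoprotein Sdha was at 1481, 1252 and 1772 adjusted reads with RANKL alone and at 945, 771 and 1024 with surface proteins (-0.71 ± 0.19, limma adjusted p = 0.037). The iron-sulphur protein Sdhb fell by 0.58 ± 0.16 (adjusted p = 0.043). Both calls were lost without any single library but RANKL alone 2, without both 15503-row libraries and without the filter, and that of Sdhb also with a replicate block (0.0529 is the lowest and 0.121 the highest adjusted p of its 8 losses, against 0.0582 and 0.107 over the 7 of Sdha). The membrane anchors did not pass: Sdhd changed by -0.87 ± 0.27 (adjusted p = 0.057) and Sdhc by -0.29 ± 0.15 (0.19). Sdhd had the largest change and the widest spread of the 4, from 924 to 1653 adjusted reads within RANKL alone.

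Complex I, the NADH dehydrogenase, had 12 of 35 members lower, 0 higher and a median of -0.40. Of its 7 core subunits, which bind NADH, the flavin, the iron-sulphur clusters and the quinone, 5 fell, with a median of -0.67. Of the 28 accessory subunits, which surround the core, 7 fell, with a median of -0.36. The core subunit Ndufs8, named after its values were seen, fell by 0.78 ± 0.19 (limma adjusted p = 0.025). Also lower, and named after their values were seen, were Ndufs7 (-0.67 ± 0.13, 0.014), Ndufs3 (-0.54 ± 0.14, 0.033) and Ndufv2 (-0.68 ± 0.18, 0.036), which carries an iron-sulphur cluster beside the NADH site. The call of Ndufs3 was lost without any 1 of the 6 libraries and that of Ndufs8 without any but RANKL alone 1. That of Ndufv2 was lost without RANKL alone 1, RANKL alone 3, surface proteins 2 or surface proteins 3. These calls were also lost without both 15503-row libraries, that of Ndufs3 with a replicate block and that of Ndufv2 without the filter, at adjusted p up to 0.2. The Ndufs7 call held without each single library and was lost only without both 15503-row libraries (0.0822). The flavin-bearing Ndufv1 changed by -0.22 ± 0.19 (adjusted p = 0.41) and the iron-sulphur protein Ndufs1 by -0.47 ± 0.15 (0.058). The 6 lower accessory subunits other than Ndufb3 were Ndufa5, Ndufb10, Ndufa1, Ndufb8, Ndufb5 and Ndufa3, with changes from -0.78 to -0.47. All but Ndufb10 lost the call without RANKL alone 1, RANKL alone 3, surface proteins 1 or surface proteins 2, and all 6 lost it without both 15503-row libraries. The lowest change was in the accessory membrane-arm subunit Ndufb3, at 2132, 1799 and 2174 adjusted reads with RANKL alone and at 1385, 907 and 921 with surface proteins (-0.95 ± 0.21, adjusted p = 0.02), a call lost in 5 of 17 alternatives (without RANKL alone 1, RANKL alone 3, surface proteins 2, surface proteins 3 or both 15503-row libraries) at up to 0.0893. The highest was in Ndufs4, which helps to hold the NADH-binding module in place, at 717, 693 and 639 with RANKL alone and at 792, 718 and 882 with surface proteins, above the control in all 3 libraries (0.22 ± 0.15, adjusted p = 0.3). Between these ends lay Ndufs5, Ndufa9, Ndufb11, Ndufc2 and Ndufa13, chosen for naming after their values were seen, with changes between -0.05 and 0.01 and intervals that reached no further than -0.47 and 0.41.

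**Figure D3:**
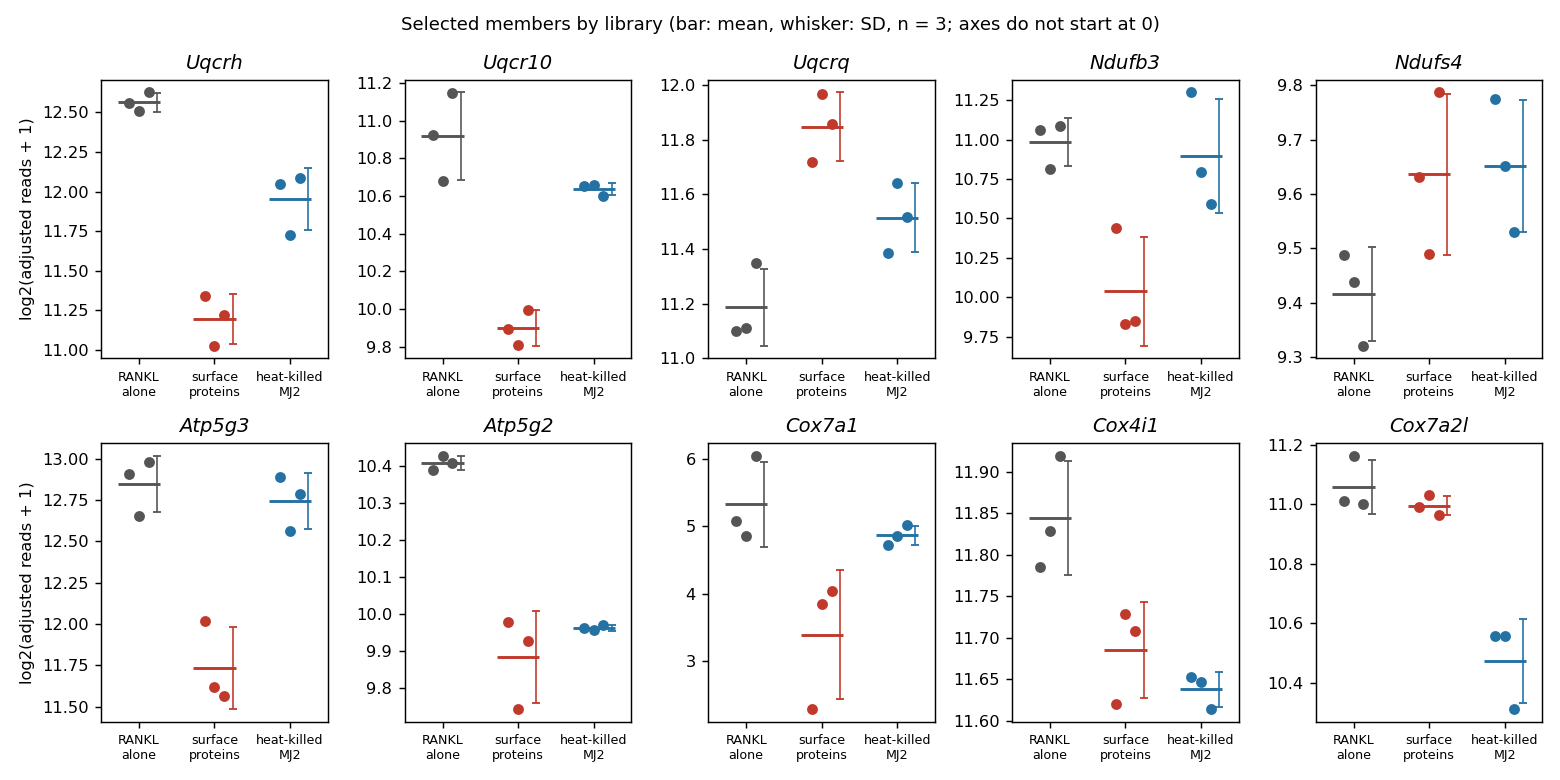
log2 of adjusted reads + 1 for 10 members, with 1 point per library, the mean as a bar and the SD as a whisker (n = 3), on axes that do not start at 0. Uqcrh, Uqcr10, Ndufb3, Atp5g3 and Cox7a1 are lowest with surface proteins, Uqcrq is highest there, and Cox7a2l is lowest with heat-killed MJ2.

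The second comparison asked the same of heat-killed MJ2. None of the 80 members passed the limma test at an adjusted p under 0.05, while 5.88% of the 10814 rows tested did (4.04% higher, 1.84% lower, and 3.37% and 0.897% with a fold change of at least 2). At an unadjusted p under 0.05 the same test gave 5 members lower and 1 higher (10.6% and 12% of all rows). A fit over all 9 libraries gave 2 lower members, a fit with a trended and robust spread 6 lower, and a fit without the filter 2, of which 1 was the barely detected Cox4i2. The median change was -0.14 over the members and -0.0042 over all rows, but -0.06 without RANKL alone 3 and between -0.22 and -0.099 without any other single library or both 15503-row libraries, and 62 of 80 members had a negative change (50.4% of all rows). In 21 members all heat-killed MJ2 libraries lay below all libraries of RANKL alone (14.7% of all rows) and in 4 they lay above (15.4%). For 77 of the 80 members the 95% interval left out a 2-fold change in either direction. In simulated data of this comparison, 42 of 100 genes changed by 1 on the log2 scale (2-fold) passed the test. Those genes were drawn from rows of any spread, and fewer rows were changed than passed in the real data. The simulated share therefore does not carry over to the members. A member that did not pass may still have changed by an amount inside its interval.

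The members nearest the threshold were Cox7a2l and Uqcrh. Cox7a2l, known as SCAF1 for its part in joining complexes III and IV, was at 2061, 2294 and 2051 adjusted reads with RANKL alone, at 2037, 2091 and 1998 with surface proteins and at 1504, 1504 and 1269 with heat-killed MJ2. The heat-killed MJ2 libraries lay below the other 6 (against RANKL alone -0.58 ± 0.14, limma adjusted p = 0.069), and the change with surface proteins was -0.06 ± 0.13 with an interval of -0.38 to 0.25. Uqcrh changed by -0.61 ± 0.15 with heat-killed MJ2 (adjusted p = 0.073), its 3 libraries lying below RANKL alone. Both passed in the fit over all 9 libraries and in the robust fit. Atp5g2, named after its values were seen, was at 1342, 1378 and 1359.6 adjusted reads with RANKL alone, at 1009, 856 and 972 with surface proteins and at 996, 992 and 1003 with heat-killed MJ2 (-0.45 ± 0.12, adjusted p = 0.084).

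By complex, the medians with heat-killed MJ2 were -0.09 for complex I, -0.23 for complex II, -0.16 for complex III, -0.19 for complex IV and -0.14 for complex V. All 7 core subunits of complex I had a negative change, with a median of -0.27, and 5 of them lay wholly below the control (14.7% of all rows). The 28 accessory subunits had a median of -0.03, with 17 negative and 11 positive changes. Of these 28, 6 lay wholly below the control and 3 wholly above (15.4% of all rows lay above). The lowest change in complex I was in the accessory subunit Ndufa6 (-0.49 ± 0.15, limma adjusted p = 0.11) and the highest in Ndufs5 (0.34 ± 0.14, 0.2). Cycs changed by 0.08 ± 0.17 (adjusted p = 0.82), Sdha by -0.32 ± 0.18 (0.34), Atp5b by -0.06 ± 0.13 (0.83) and Uqcrq by 0.33 ± 0.15 (0.25). In complex V the ends were Atp5sl (-0.55 ± 0.24, adjusted p = 0.23) and Atp5j, the coupling factor F6 (0.06 ± 0.19, 0.89), and both groups overlapped. Both comparisons with RANKL alone share the same 3 control libraries, so their values are given side by side and likeness between them was not measured. The osteoclast marker sum was 13868 to 16029 adjusted reads in these cells, below RANKL alone. Of its 9 tested markers 3 were lower past the test (1.84% of all rows) and 0 higher. Their changes were negative in 7 and positive in 2, up to 0.58. The proliferation sum, 4562 to 6762, overlapped the control and none of the 5 markers passed. Of the macrophage markers Cd14, Lyz2 and Itgam rose, by 2.26 to 3.10 on the log2 scale. Over all 8 macrophage markers 5 changes were positive and 3 negative, the lowest at -0.62.

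A direct comparison set surface proteins against heat-killed MJ2. Of the 80 members 14 fell and 1 rose (8.65% and 9.21% of the 10916 rows tested), the median was -0.39 against 0.03 over all rows, and 71 of 80 changes were negative (47.8% of all rows). Groups did not overlap for 54 lower members (20.1% of all rows) and 3 higher (22.2%). Complex III had 4 lower members, namely Uqcrh (-0.76 ± 0.16, limma adjusted p = 0.029), Uqcr10 (-0.74 ± 0.13, 0.017), Uqcr11 (-0.92 ± 0.23, 0.04) and Uqcrfs1 (-0.55 ± 0.14, 0.044). Complex V had 5, led by Atp5g3 (-1.01 ± 0.18, 0.019), which was the single member past both the adjusted p and a fold change of at least 2 (4.97% of all rows passed both and fell, 5.08% rose) and was lower in 3 of 3 libraries. Cox7a1 had a larger change that did not pass (-1.48 ± 0.46, 0.074). Cycs fell by 0.57 ± 0.13 (adjusted p = 0.035) and Cox7a2 by 0.69 ± 0.14 (0.025). Ndufb3 had the lowest change in complex I (-0.86 ± 0.26, 0.067) and Ndufa6 the highest (0.28 ± 0.14, 0.2), and neither passed. In complex V the highest was again Atp5s (0.86 ± 0.36, 0.14). This comparison and that with RANKL alone share the 3 surface protein libraries.

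Cox7a2l was the single higher member (0.52 ± 0.14, limma adjusted p = 0.046), with the values given above. Its call was lost in 11 of 17 alternatives, at adjusted p up to 0.21, quantile normalization, equal totals and leaving out any 1 of the 6 libraries among them. The whole count depended on single libraries. It was 1 without surface proteins 2, 3 without surface proteins 3, and 0 by limma without heat-killed MJ2 1, without heat-killed MJ2 3 or without both 15503-row libraries, against 45 at an unadjusted p and 46 in the robust fit. Each of the 15 calls was lost without at least 1 single library, from Atp5j2 (3 of 17 alternatives, without heat-killed MJ2 1 or 3 or both 15503-row libraries) to Cox7a2l (11). The medians stayed between -0.47 and -0.33 in all of these. The osteoclast list was lower with surface proteins here too (7 of 9 tested), as were all 5 proliferation markers, and their part in the result was not tested.

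Genes that work with the subunits were read from lists of assembly factors, regulators of mitochondrial biogenesis, the citric acid cycle with pyruvate dehydrogenase, carriers and uncoupling proteins, and mitochondrial import and chaperones. With surface proteins against RANKL alone, 10 of 47 tested assembly factors fell and 1 rose (median -0.30), as did 3 and 0 of 16 regulators (-0.0093), 5 and 1 of 17 citric acid cycle genes (-0.47), 4 and 1 of 12 carriers (-0.49) and 4 and 2 of 19 import genes (-0.26), where 13.2% of all rows fell and 15.9% rose. The regulators' median thus lay near that of all rows, while the other lists lay below it. With heat-killed MJ2 against RANKL alone 1 gene of all these lists passed (1.84% of all rows fell and 4.04% rose), the complex III assembly factor Uqcc3, at 239, 324 and 286 adjusted reads with RANKL alone and 147, 138 and 146 with heat-killed MJ2 (-0.96 ± 0.16, limma adjusted p = 0.025). Uqcc3 also fell with surface proteins (-0.86 ± 0.20, 0.025). Its call with heat-killed MJ2 was lost without any single library but RANKL alone 1 (adjusted p up to 0.191), and that with surface proteins without RANKL alone 2 or 3 or surface proteins 2 or 3 (up to 0.149). Between surface proteins and heat-killed MJ2, 5 of 48 assembly factors, 1 of 16 regulators, 2 of 17 citric acid cycle genes, 1 of 12 carriers and 5 of 19 import genes were lower past the test (8.65% of all rows), and 1 import gene, Lonp1, was higher (1.00 ± 0.20, 0.024, with 9.21% of all rows higher).

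**Figure D4:**
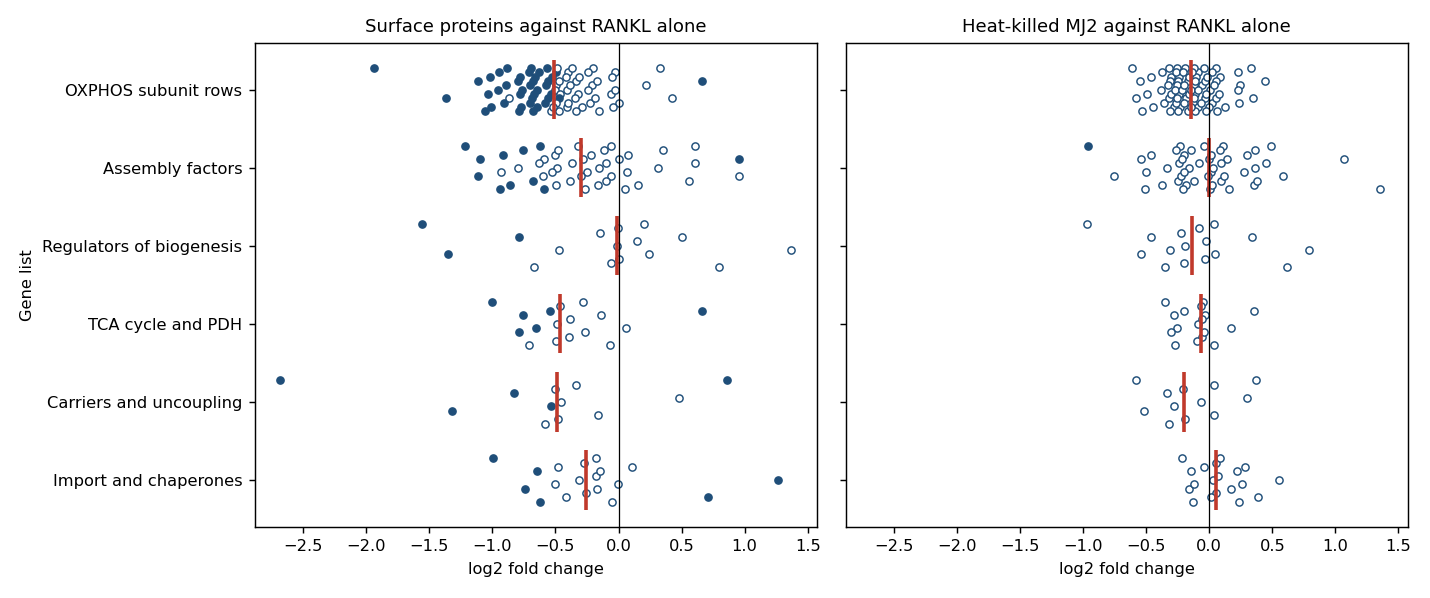
log2 fold change (x axis) of the OXPHOS rows and 5 lists of related mitochondrial genes (y axis), for surface proteins (left) and heat-killed MJ2 (right) against RANKL alone. Filled points passed an adjusted p under 0.05, and the red bar is the median. With surface proteins the OXPHOS median is -0.51 and that of the regulators is -0.0093.

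Among the regulators, Ppargc1b was at 422, 527 and 619 adjusted reads with RANKL alone, at 173, 196 and 158 with surface proteins and at 418, 326 and 328 with heat-killed MJ2. It fell with surface proteins against RANKL alone by 1.55 ± 0.19 on the log2 scale (limma adjusted p = 0.003) and against heat-killed MJ2 by 1.02 ± 0.17 (0.015), and its change with heat-killed MJ2 against RANKL alone was -0.54 ± 0.20 (0.17). The mitochondrial DNA helicase Peo1 fell with surface proteins (-1.35 ± 0.38, adjusted p = 0.04), as did Pprc1, a relative of PGC-1 that was named after its values were seen (-0.79 ± 0.20, 0.028). The mitochondrial transcription factor Tfam changed by -0.06 ± 0.15 (adjusted p = 0.78). Of the factors whose motif letters were searched, these 4 did not pass and were named after their values were seen: Nrf1 (0.20 ± 0.16, adjusted p = 0.38), Yy1 (0.15 ± 0.13, 0.44), Gabpa (-0.0037 ± 0.21, 0.99) and Esrra (-0.015 ± 0.16, 0.95). Ppargc1a was at 0 in all 9 libraries, which allows up to 3 reads in each.

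The assembly factors with a 2-fold fall were Pet100 (-1.22 ± 0.21, limma adjusted p = 0.0089) and Cox20 (-1.12 ± 0.16, 0.0053), both for complex IV, and Ndufab1 (-1.10 ± 0.22, 0.014), the acyl carrier protein that is also a complex I subunit but does not match the naming rule. In the citric acid cycle, Idh3a, a subunit of the NAD-dependent isocitrate dehydrogenase, fell by 1.00 ± 0.19 (adjusted p = 0.011). Of the carriers, the dicarboxylate carrier Slc25a10 was at 157, 191 and 145 adjusted reads with RANKL alone and at 11.7, 20.1 and 61.6 with surface proteins (-2.68 ± 0.56, adjusted p = 0.017). The uncoupling protein Ucp2 fell by 1.32 ± 0.24 (0.011), and Atpif1, the inhibitor of the ATP synthase, changed by -0.32 ± 0.14 (0.13).

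Not every mitochondrial transcript fell with surface proteins. The matrix protease Lonp1 was at 892, 1061 and 959.7 adjusted reads with RANKL alone, at 2462, 2199 and 2335 with surface proteins and at 982, 1523 and 1045 with heat-killed MJ2, a rise of 1.27 ± 0.14 on the log2 scale (limma adjusted p = 0.0022). Named after their values were seen, the matrix chaperone Hspa9 rose (0.71 ± 0.13, adjusted p = 0.01), as did the outer membrane channel Vdac3 (0.86 ± 0.14, 0.0067), the assembly factor Ndufaf7 (0.96 ± 0.24, 0.031) and the dehydrogenase subunit Dld (0.66 ± 0.18, 0.035). These 5 were the only genes of the 5 lists that rose past the test in this comparison. Among the list genes given with values for it, the calls of Ppargc1b, Cox20, Ndufab1, Idh3a and Lonp1 held in all 17 alternatives, those of Pet100, Ucp2, Hspa9 and Vdac3 were lost only without both 15503-row libraries, and that of Slc25a10 only without surface proteins 2 (limma adjusted p = 0.0582). The calls of Peo1, Pprc1, Ndufaf7 and Dld were each lost without 5 of the 6 single libraries. Against heat-killed MJ2, the calls of Ppargc1b and Lonp1 were lost in 3 and 7 alternatives, both without heat-killed MJ2 1 or 3.

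In the GENCODE M21 annotation of the GRCm38 (mm10) build, Uqcrh lies at chr4:116066965-116075071, Uqcrq at chr11:53427922-53430831, Atp5g3 at chr2:73908447-73911326 and Cox7a2l at chr17:83501918-83517330, all on the minus strand, and Cox7a1 at chr7:30184144-30186078 on the plus strand. The 84 members with coordinates lay on 19 chromosomes. The 3′ ends of the members were compared with other transcripts, since reads can be shared between them. Of the 85, 18 had a pseudogene copy at their 3′ end, 4 a similar coding gene, and 15 another gene overlapping the last 1000 bases. Matches on either strand were counted. For Ndufb6, Ndufb2 and Uqcrc2 the similar coding gene (Smim27, Braf and Pdzd9) was the neighbour that overlaps the end on the opposite strand. Uqcrh, Uqcr11, Atp5k, Atp5j2 and Ndufb3 each had 1 such pseudogene, so how reads were shared with it is uncertain, whereas Uqcr10, Uqcrq, Cox7a1, Cox7a2l and Atp5g3 had none. A processed pseudogene, Gm12854, overlaps the end of Uqcrh on the opposite strand, and whether it is the copy was not checked. Among the 50 tested members with neither a copy nor an overlap, 24 fell with surface proteins and 1 rose, with a median of -0.53. Across the 80 tested members, Spearman's rho of the log2 fold change with transcript length was 0.25 (0.046 over all rows with an annotation), and with GC content of the last 500 bases it was -0.01 (-0.086 over all rows). These are descriptions across genes measured in the same libraries, which are not independent replicates.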

How the data were processed

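Total RNA of RAW264.7 cells was sequenced as 3′ mRNA tags. Per the submitters' processing notes, Bowtie2 and bedtools were used with the mm10 build. Annotation, strand and treatment of reads with several matches are not given in the sources used here. The authors deposited log2 values of adjusted reads plus 1, and the methods name quantile normalization, but the sorted columns differ between libraries, so the scaling is not known. Values were used as deposited.

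Each comparison was fitted on its own 6 libraries with limma 3.58.1 in R 4.3.3 (lmFit, eBayes, two-sided), for rows reaching 10 adjusted reads in 3 or more libraries, with Benjamini-Hochberg adjustment over all rows. Rows passed where the adjusted p fell under 0.05, whatever the fold change, and a 2-fold limit was an alternative. Errors are limma's standard errors. The values of 1 complex I member are not reported here, though it is included in the counts. The smallest exact permutation p for 3 against 3 libraries is 0.1, so tests rest on the fits. Fold changes are on the log2(adjusted reads + 1) scale and understate those of low genes. Floors and intervals cover counting or library spread only, since reads from PCR are not independent molecules.

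The members and lists were chosen with earlier results of these data known. Named members were those of fixed roles, the extremes of each complex and those past a 2-fold change. Named list genes were those past a 2-fold change with Ppargc1b, Tfam, Ucp2 and Atpif1, and others are marked as named after their values were seen. The code was tested on simulated data: for surface proteins against RANKL alone, 39 of 100 genes changed by 1 on the log2 scale and 85 of 100 changed by 2 passed, with 6 of 10252 unchanged genes. Transcripts came from GENCODE M21. For each gene the longest coding transcript was taken, and its end need not be the end that was sequenced. Its last 300 bases were compared with all transcripts, on either strand, by blastn 2.17.0 (at least 95% identity over at least 75 bases). Promoters came from RefSeq on GRCm38.p6. Python 3.11.15, numpy 2.4.6, pandas 2.3.3, scipy 1.17.1 and matplotlib 3.10.9 were used.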

Additional observations from a re-analysis of the deposited data

How the results depend on the processing

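The median change of the members kept its sign in all 3 comparisons under all alternatives (other scalings, filters, constants before the log, fits, and libraries left out), although for heat-killed MJ2 against RANKL alone it ran from -0.22 to -0.06. Counts past the test moved more. For surface proteins against RANKL alone, 40 became 57 with a trended and robust spread, 49 with all 9 libraries in 1 fit, 45 with quantile normalization and 44 with equal totals. It became 31 without the filter, 7 with a 2-fold limit, 25 with a replicate block, 6 without the library with most rows above 0 in each group (an alternative added after seeing the data), and 13 to 28 without single libraries. For heat-killed MJ2 against RANKL alone, 0 became 2 without the filter, 2 with all 9 libraries in 1 fit, 6 with a trended and robust spread and 6 at an unadjusted p, and stayed at 0 by limma without any single library, where the unadjusted count of the full fit was 6. For surface proteins against heat-killed MJ2, 15 became 9 without the filter, 25 with all 9 libraries, 7 with a replicate block, 46 with the robust spread, 1 with a 2-fold limit, 45 at an unadjusted p, 0 without the libraries with most rows above 0 and 0 to 13 without single libraries. Leaving out libraries makes groups of 2, and the unfiltered fit tests more rows. For the other moves the cause was not tested. Same-numbered libraries of different groups correlated in their deviations from the group means at 0.018 to 0.11, not above 0.1 in every pair, so the numbers were not taken to pair samples, although every library correlated best with its own number.

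Over all alternatives, given in the same order of comparisons as above, the named members kept their sign and side of the threshold in 502, 525 and 462 cases, lost the call in 82, 0 and 47, gained it in 26, 7 and 25 and reversed in 1, 12 and 9, all near 0. With heat-killed MJ2 against RANKL alone, Cox7a2 became 0.021 with quantile normalization and 0.013 with equal totals. Without single libraries the changes ran, in that comparison, from -0.083 to 0.052 for Cox7a2, -0.052 to 0.17 for Cycs, -0.088 to 0.18 for Atp5j, -0.012 to 0.12 for Sdhc, -0.12 to 0.0077 for Atp5b and -0.11 to 0.033 for Atp5c1, and for surface proteins against heat-killed MJ2 from -0.23 to 0.13 for Ndufa4l2 and -0.065 to 0.21 for Ndufv1. Without the libraries with most rows above 0, Cox7a2l became 0.0055 for surface proteins against RANKL alone, Atp5j -0.19 for heat-killed MJ2 against RANKL alone, and Ndufa4l2 0.18 and Ndufv1 -0.062 for surface proteins against heat-killed MJ2. With equal totals in that comparison, Cox4i1 became -0.035 and Ndufv1 -0.0017. Among the members tested between surface proteins and RANKL alone, Cox7a1, at 3.88 to 65.3 adjusted reads, had the widest interval.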
